A study of Mus musculus with 4 samples.

Results

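The 10 genes described here encode subunits of the nucleosome remodelling and deacetylase complex (NuRD): Mbd2 and Mbd3, Mta1, Mta2 and Mta3, Chd3 and Chd4, Gatad2a and Gatad2b, and Rbbp7. They were taken by name, as every non-control spot whose gene name in the scanner files is one of these symbols, a rule that uses names and no measured value. This gave 21 probes with 1 spot each on every array, of which 19 were bright enough to be tested, and all 10 genes are among the 21411 genes tested in all.

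NuRD joins an ATP-driven nucleosome remodeller (Chd3, Chd4 or Chd5) to a histone deacetylase (Hdac1 or Hdac2), and it is known for lowering the activity of enhancers and promoters. The metastasis-associated proteins (Mta) hold the deacetylases, the histone chaperones Rbbp4 and Rbbp7 bind the Mta proteins, the Mbd proteins join the deacetylase part to the remodeller, and the Gatad2 proteins bridge between them. Within most of these families 1 paralogue takes the place of another in a given complex, so that Mbd2 and Mbd3 define separate complexes. In mouse embryonic stem cells the Mbd3 complex is known to be needed for leaving the pluripotent state, and LSD1 (Kdm1a), the histone demethylase in the title of the study, is known to associate with NuRD.

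RNA came from the mouse embryonic stem line ZHBTc4, whose only source of Oct4 (Pou5f1) is a transgene that doxycycline turns off. Cells moved from irradiated embryonic fibroblasts to gelatin were treated for 48 h with 2 µg doxycycline (dox, titled the control) or with that dose plus TCP (dox+TCP). The labels do not spell out TCP; in work on LSD1 it usually means tranylcypromine, which inhibits monoamine oxidases and LSD1. Each group has 2 biological replicates, each on 1 two-colour array with the treated RNA in Cy5 and a reference in Cy3, RNA of ZHBTc4 cells for which no treatment is named. All groups share the line and therefore 1 genetic background, and no array had the dyes exchanged, so a dye effect on a gene and its response against the reference cannot be told apart.

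Between 74.3% and 78.1% of the spots on an array were well above background in Cy5 and between 68.8% and 78.1% in Cy3, and 0 spots were saturated; with 2 arrays a group, the number of arrays limits the precision. Pou5f1 had log2 ratios to the reference of -3.38, -3.62, -3.29 and -3.28 on dox replicates 1 and 2 and dox+TCP replicates 1 and 2, low on all 4 arrays. All 8 embryonic stem cell markers fell with dox (limma, adjusted p under 0.05). With dox+TCP 7 of the 8 fell, and Nanog did not pass (-0.55, limma adjusted p = 0.133). Of 8 trophoblast markers 0 passed in either comparison, with median log2 ratios of 1.77 with dox and 1.15 with dox+TCP. Over all genes 14.6% passed with dox and 15.4% with dox+TCP. The reference stood apart between replicates: the log2 of the summed Cy3 level of 8 trophoblast markers was 14.5 and 14.8 on the replicate 1 arrays but 17.4 and 17.5 on the replicate 2 arrays, against 18.1 to 18.7 in Cy5. Every one of the 8 trophoblast markers was well above background in both channels of all 4 arrays. Of 8 fibroblast markers of feeder cells, 7 were dimmer in the reference of replicate 2 (median log2 difference -0.40, lowest -2.36 for Col1a1), and Thy1, Vim and Twist1 fell with dox. The part these play in the ratios below was not tested, and the reference levels of the subunits themselves are given after the results.

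With dox, 4 of the 10 subunits passed the test against the reference. Mbd2, Mta3 and Chd3 rose and Mbd3 fell, and the other 6 did not pass. Over all genes tested, 14.6% passed, 6.32% higher and 8.28% lower (limma, 2 arrays against the reference, Benjamini-Hochberg adjusted p under 0.05). The median log2 ratio was 0.66 over the 10 subunits and -0.00099 over all genes. With dox+TCP, Mta3 and Chd3 rose and Mbd3 fell, 3 of 10 against 15.4% of all genes (7.31% higher, 8.08% lower), and the medians were 0.21 and 0.033. Both comparisons use the same reference, so their counts are set side by side only. On all 4 arrays 7 of the 10 lay above the reference, 2 lay below it on all 4, and Chd4 lay on both sides; over all genes 28.2% were above on all 4 arrays and 26% below. In these bulk samples, fewer cells of a type and less RNA per cell cannot be told apart. The spread behind these calls is shared by all 4 arrays. With the 2 dox arrays fitted alone, 0 of the 10 and 0 of all genes passed for dox (limma; 5140 genes had an unadjusted p under 0.05), and with the dox+TCP arrays alone 4 of the 10 and 27.7% of all genes passed. With local backgrounds as read, 0 of all genes passed in either comparison (limma; 1901 and 1968 at an unadjusted p under 0.05). When each array was only centred on its median, which moved the median of all genes with dox to 0.18, 7 subunits passed with dox beside 28.1% of all genes and 6 with dox+TCP beside 23.9%, all higher. The share of higher genes among those called with dox was then 81.1%, against 43.3% after loess. Directions below are after loess and are relative to that choice.

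**Figure D1:**
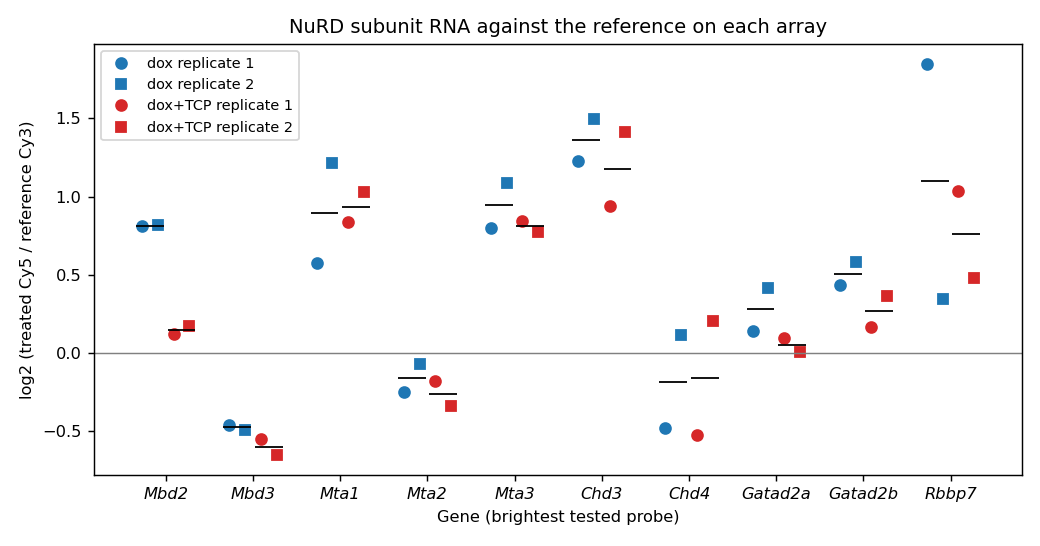
Log2 ratio of treated Cy5 over reference Cy3 (vertical axis) for the brightest tested probe of each subunit (horizontal axis) on each of the 4 arrays; colour gives the treatment, shape the replicate, and a short line the mean of 2 arrays. After loess, Mbd3 and Mta2 lie below 0 on all 4 arrays (their dox means were 0.079 and 0.44 under median centring), Chd4 on both sides of it, and the 2 dox arrays of Rbbp7 are 1.503 apart.

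Of the methyl-CpG-binding-domain subunits, Mbd2 lay above the reference and, after loess, Mbd3 below it on every array. Mbd2, which binds methylated DNA, had log2 ratios of 0.81 and 0.82 on the dox arrays and 0.12 and 0.17 on the dox+TCP arrays. All 4 values lie above the reference, and the 2 groups do not overlap. The rise with dox was 0.81 ± 0.076 (log2, standard error, n = 2), or 1.76-fold, with a limma adjusted p of 0.0189. The dox+TCP value, 0.15 ± 0.076, did not pass (adjusted p = 0.283). Under median centring Mbd2 passed in both, at 1.20 and 0.45 (limma adjusted p = 0.00709 and 0.0492). With local backgrounds as read its dox value was 0.42 and did not pass (adjusted p = 0.508). These values come from 1 probe, since the other Mbd2 probe was not well above background on any array.

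Mbd3, which binds methylated DNA poorly and defines the other complex, had log2 ratios of -0.46 and -0.49 with dox and -0.55 and -0.65 with dox+TCP. Every array lay below the reference. It fell by 0.48 ± 0.080 on the log2 scale with dox (limma adjusted p = 0.0398) and by 0.60 ± 0.080 with dox+TCP (adjusted p = 0.0272), which is 1.39-fold and 1.52-fold lower (n = 2 each). Its only probe lies at chr10:80183845-80183905 of mouse build mm7, the build of all probe positions here. The fall is small, and its direction depends on the scaling: with each array only centred on its median the dox value was 0.079 (limma adjusted p = 0.651; over all alternatives from 0.0353 to 0.651), and the dox+TCP value was -0.22 (adjusted p = 0.22). With the scanner software's log ratios the values were -0.50 with dox and -0.61 with dox+TCP, and neither passed (adjusted p = 0.0871 and 0.0535). Without dox replicate 1 or 2 the dox value was -0.49 or -0.46 and did not pass (adjusted p = 0.0787 and 0.104).

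The metastasis-associated subunits divided 2 against 1. Mta1, the founding member of the family, had log2 ratios of 0.57 and 1.22 with dox and 0.84 and 1.03 with dox+TCP. Mta3, a paralogue first described as hormone-regulated in breast epithelium, had 0.80 and 1.09 with dox and 0.84 and 0.77 with dox+TCP. Both were above the reference on every array and their treated groups overlap. Mta3 rose by 0.95 ± 0.11 with dox, or 1.93-fold (limma adjusted p = 0.0231), and by 0.81 ± 0.11 with dox+TCP, or 1.75-fold (adjusted p = 0.0271). Mta1 was of the same size, 0.90 ± 0.19 and 0.93 ± 0.19, but did not pass (limma adjusted p = 0.059 and 0.0532), the gap between its dox arrays being 0.64 against 0.29 for Mta3. Whether Mta1 passed depends on the processing. Under median centring it passed in both, at 1.48 and 1.34 (adjusted p = 0.0146 and 0.0221). With dox+TCP it also passed with the scanner log ratios and with an offset of 16 (adjusted p = 0.048). With local backgrounds as read it passed in neither (adjusted p = 0.508 and 0.62).

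Mta2, the remaining member, had log2 ratios of -0.25 and -0.073 with dox and -0.18 and -0.34 with dox+TCP, below the reference on every array but close to it. Its means were -0.16 ± 0.097 and -0.26 ± 0.097 and did not pass (limma adjusted p = 0.353 and 0.168). With arrays centred on their medians these means were 0.44 and 0.17, so that the side of the reference on which Mta2 lies depends on the scaling. The 2 Mta3 probes, at chr17:82087079-82087138 and chr17:82094554-82098927, gave 0.95 and 0.88 with dox and 0.81 and 0.78 with dox+TCP, and the 2 Mta2 probes, at chr19:8632207-8632266 and chr19:8632094-8632153, gave -0.16 and -0.055 with dox. The single Mta1 probe lies at chr12:110661829-110661888.

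Promoter sequence was used for 7 of the 10 genes (10 start sites, RefSeq, build GRCm38.p6). No start site of Mbd2, Mta3 or Chd3 was included, so the motif and CpG counts below do not cover these genes. After loess, the ratios of Mta1 and Mta2 lay on opposite sides of the reference, and Mbd3 was called lower. Under median centring the Mta2 means and the dox mean of Mbd3 lay above the reference. The 250 bases before the start are shown for Mta1, Mta2 and Mbd3. They lie at chr12:113098028-113098277 (plus strand), chr19:8941670-8941919 (plus strand) and chr10:80399532-80399781 (minus strand), each written 5′ to 3′ along the gene. Capitals mark the octamer ATGCAAAT, the motif that Oct4 is known to bind, searched on both strands (ATTTGCAT on the other).
Mta1: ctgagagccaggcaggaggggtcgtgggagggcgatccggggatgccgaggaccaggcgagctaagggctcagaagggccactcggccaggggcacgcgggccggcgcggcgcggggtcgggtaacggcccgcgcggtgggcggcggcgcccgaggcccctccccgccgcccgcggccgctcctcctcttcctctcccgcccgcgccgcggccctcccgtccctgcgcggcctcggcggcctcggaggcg
Mta2: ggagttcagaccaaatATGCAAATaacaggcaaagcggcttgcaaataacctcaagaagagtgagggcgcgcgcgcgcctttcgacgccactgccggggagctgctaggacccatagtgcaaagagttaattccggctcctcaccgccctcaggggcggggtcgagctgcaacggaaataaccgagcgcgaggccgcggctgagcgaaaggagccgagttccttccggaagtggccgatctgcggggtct
Mbd3: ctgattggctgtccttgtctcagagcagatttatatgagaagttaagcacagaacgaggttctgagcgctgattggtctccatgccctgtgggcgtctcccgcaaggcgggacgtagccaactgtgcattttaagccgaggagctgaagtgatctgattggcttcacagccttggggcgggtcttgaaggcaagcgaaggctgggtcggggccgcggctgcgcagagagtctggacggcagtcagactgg

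Among the 10 start sites the octamer was found only before Mta2, where it begins 234 bases before the start; 1.601% of 32851 windows of this length hold it. A match is letters in a window and not a measured site. The CpG count was 39 for Mta1, 24 for Mta2 and 14 for Mbd3, and 1.565%, 11.978% and 29.363% of all windows hold at least as many. The median was 19 over the 10 windows and 6 over all.

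Of the remodellers, Chd3 rose and Chd4 did not pass. Chd3, an ATP-driven helicase of NuRD, had log2 ratios of 1.23 and 1.496 with dox and 0.94 and 1.41 with dox+TCP, above the reference on all 4 arrays. The rise was 1.36 ± 0.16, or 2.57-fold, with dox (limma adjusted p = 0.0238) and 1.17 ± 0.16, or 2.26-fold, with dox+TCP (adjusted p = 0.0281). Without dox replicate 2 the dox value was 1.23 and did not pass (adjusted p = 0.0552; over all alternatives from 0.00726 to 0.508). The values were 0.78 and 0.44 with local backgrounds as read, and 0.72 with dox+TCP as the mean of its probes. All 3 tested Chd3 probes rose with dox, by 1.36 at chr11:69445712-69446319, 1.14 at chr11:69425003-69425062 and 0.75 at chr11:69440708-69440767. With dox+TCP the first and second rose, by 1.17 and 0.72, while the dimmest was at 0.27 (adjusted p over probes 0.169). An offset added to both channels draws the ratio of a dim probe toward 0. On dox replicate 1 this dimmest probe was at 0.81, whereas the log ratio of the scanner software was 1.51 on the log2 scale. These values also differ in background and dye correction, and the part of the offset was not tested. On dox+TCP replicate 2 that probe was not well above background. A further Chd3 probe was not well above background on any array.

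Chd4, the main NuRD remodeller of embryonic stem cells, had log2 ratios of -0.48 and 0.11 with dox and -0.52 and 0.20 with dox+TCP. At this brightest probe the replicate 1 arrays lay below the reference and the replicate 2 arrays above it in both groups. Its means were -0.18 ± 0.25 and -0.16 ± 0.25 (limma adjusted p = 0.687 and 0.711). The 95% interval for dox, -0.90 to 0.53, leaves room for a change of either sign. The other 2 Chd4 probes had means of 0.061 and 0.18 with dox and -0.19 and -0.25 with dox+TCP, and none of the 3 passed. At both of these probes both dox+TCP arrays lay below both dox arrays. Their differences were -0.25 and -0.43 (limma unadjusted p = 0.202 and 0.0521, adjusted over probes 0.999), whereas the brightest probe gave 0.026.

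At their brightest probes the Gatad2 bridging subunits lay above the reference on every array and did not pass after loess. Under median centring Gatad2a passed with dox (0.92, limma adjusted p = 0.0212). Gatad2b then passed with dox (0.99, adjusted p = 0.0102) and with dox+TCP (0.60, adjusted p = 0.0348). Gatad2a had log2 ratios of 0.14 and 0.42 with dox and 0.10 and 0.0041 with dox+TCP, means of 0.28 ± 0.11 and 0.052 ± 0.11 (limma adjusted p = 0.175 and 0.777). Gatad2b had 0.43 and 0.58 with dox and 0.16 and 0.37 with dox+TCP, means of 0.51 ± 0.099 and 0.27 ± 0.099 (adjusted p = 0.0516 and 0.165). At the brightest probe of both genes the dox+TCP arrays lay below the dox arrays without overlap. The second Gatad2a probe, with means of 0.32 and -0.15, also had both dox+TCP arrays below both dox arrays. At both other Gatad2b probes the groups overlap. The probe matching transcript AK141586 lay the other way, with means of -0.10 with dox and 0.42 with dox+TCP. The remaining probe had 0.30 and 0.23 with dox and -0.025 and 0.45 with dox+TCP. None of these dimmer probes passed.

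Rbbp7, the histone-binding chaperone, had log2 ratios of 1.85 and 0.35 with dox and 1.04 and 0.48 with dox+TCP. All were above the reference, and the replicate 1 arrays were higher than the replicate 2 arrays. Its mean with dox, 1.098 ± 0.42, did not pass (limma adjusted p = 0.175), nor did 0.76 ± 0.42 with dox+TCP (adjusted p = 0.305). Under median centring Rbbp7 passed in both, at 1.89 and 1.41 (limma adjusted p = 0.0185 and 0.0425). The gap of 1.503 between its dox arrays is at the 96.8th percentile of all genes. Its probe lies at chrX:157552790-157552849.

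**Figure D2:**
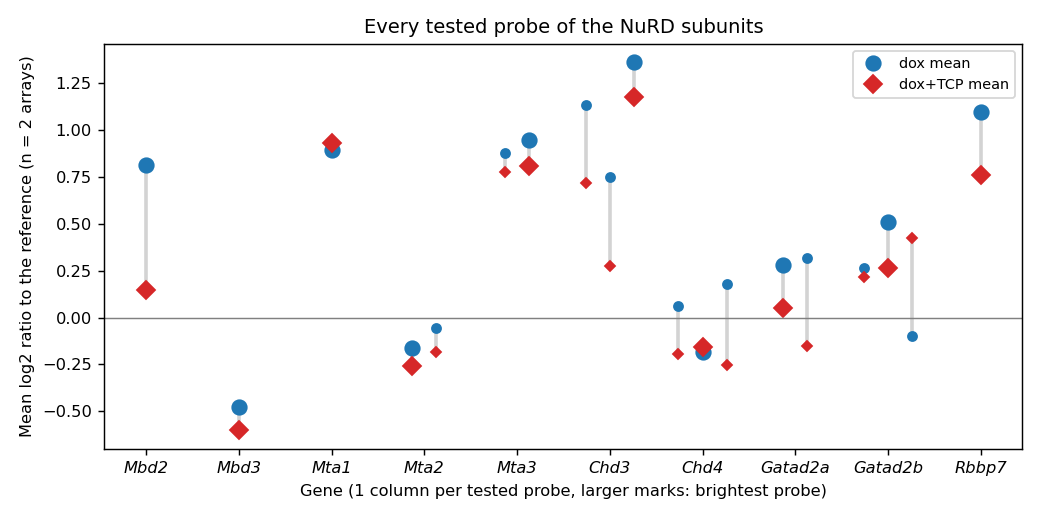
Mean log2 ratio to the reference (vertical axis, n = 2 arrays) for each of the 19 tested probes, grouped by gene; circles are dox, diamonds dox+TCP, and larger marks the brightest probe. The Mta3 and Chd3 probes all lie above 0 in both groups, and 1 Gatad2b probe has -0.10 with dox and 0.42 with dox+TCP.

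Between dox+TCP and dox none of the 10 subunits passed, and neither did any of the 21411 genes (0%, limma adjusted p under 0.05). In simulated data with 200 changed genes this comparison recovered 0% of log2 changes of 1 or 2. For dox against the reference the simulation recovered 0% of changes of 1, whereas Mbd3 was called at -0.48 in the data. The simulated rates therefore do not carry over to these data. With 2 arrays against 2, the absence of calls does not show that nothing changed. At an unadjusted p under 0.05 there was 1 subunit, Mbd2, and 943 genes in all (4.4%, of which 1.67% of genes tested were lower). The estimates were below 0 for 8 of 10, against 40.7% of all genes, with a median of -0.16 against 0.040 over all genes. At the brightest probe, both dox+TCP arrays lay below both dox arrays in 4 subunits, Mbd2, Mbd3, Gatad2a and Gatad2b, and in none above. Over all genes these shares were 12.9% and 20.2%.

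Mbd2 had the largest difference of the 10, -0.67 (95% interval -0.97 to -0.36, limma unadjusted p = 0.0041, adjusted p = 0.996, 2 arrays against 2), 1.59-fold lower. It was -0.69 between the arrays that share a slide, which are replicate 1 of each group, and -0.64 between the replicate 2 arrays. The channels behind it were not alike in the 2 replicates. The normalized log2 Cy5 level of Mbd2 was 9.31 and 9.05 with dox and 8.58 and 9.39 with dox+TCP, and its Cy3 reference level was 8.49, 8.23, 8.46 and 9.22. In replicate 1 the treated level was lower with dox+TCP, whereas in replicate 2 it was higher and the reference was higher still. From Cy5 levels alone the difference was -0.19 (adjusted p = 1; over all alternatives from 0.245 to 1).

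At the brightest probe, the intervals of the other 9 all include 0. For Mbd3 the difference was -0.13 (95% interval -0.45 to 0.19), for Mta3 -0.14 (-0.57 to 0.29) and for Chd3 -0.19 (-0.83 to 0.45). The other 2 tested Chd3 probes had differences of -0.42 and -0.48 (limma unadjusted p = 0.0391 and 0.032, adjusted over probes 0.999), with both dox+TCP arrays below both dox arrays. For Rbbp7 the interval runs from -2.02 to 1.34, which holds a change of 2-fold in either direction.

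**Figure D3:**
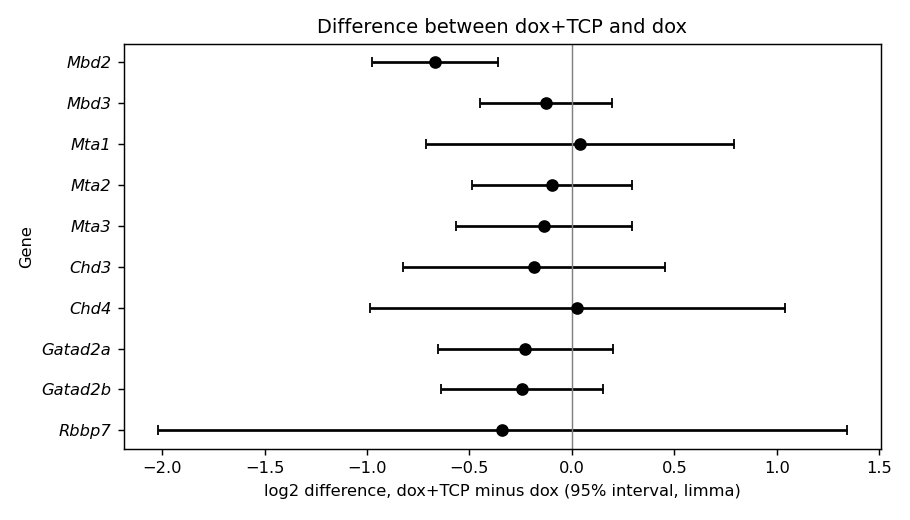
Log2 difference between dox+TCP and dox (horizontal axis, with 95% intervals from limma, 2 arrays against 2) for each subunit (vertical axis). The interval of Mbd2, -0.97 to -0.36, excludes 0 before adjustment, and the other 9 include it.

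Paralogues were compared within each array, as differences of log2 ratios, which says how they changed relative to each other and not which is more abundant. Chd4 minus Chd3 was -1.71 and -1.38 on the dox arrays and -1.46 and -1.21 on the dox+TCP arrays, a mean of -1.44 ± 0.21 (SD, n = 4). Mta3 minus Mta2 was 1.05, 1.16, 1.02 and 1.11, a mean of 1.09 ± 0.063, the smallest spread of the 6 pairs. Mta1 minus Mta2 was 0.82, 1.29, 1.02 and 1.37, a mean of 1.12 ± 0.25. On every array the ratio of Chd3 thus lay above that of Chd4, and those of Mta1 and Mta3 above that of Mta2.

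Mbd3 minus Mbd2 was -1.28 and -1.31 with dox and -0.67 and -0.83 with dox+TCP, a mean of -1.02 ± 0.32. The sign is the same on all 4 arrays and the values with dox+TCP are closer to 0. Gatad2a minus Gatad2b was -0.29, -0.16, -0.066 and -0.36, a mean of -0.22 ± 0.13. Mta3 minus Mta1 was 0.23, -0.13, 0.0056 and -0.26, a mean of -0.038 ± 0.21 with both signs. For the 5 pairs with 1 sign, the exact two-sided sign-flip permutation test over 4 arrays gave p = 0.125, the smallest this design allows (adjusted over 6 pairs, 0.15), so it cannot reach 0.05; for Mta3 and Mta1 p was 0.75. The 4 arrays hold 2 treatments and are not replicates of 1 condition.

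**Figure D4:**
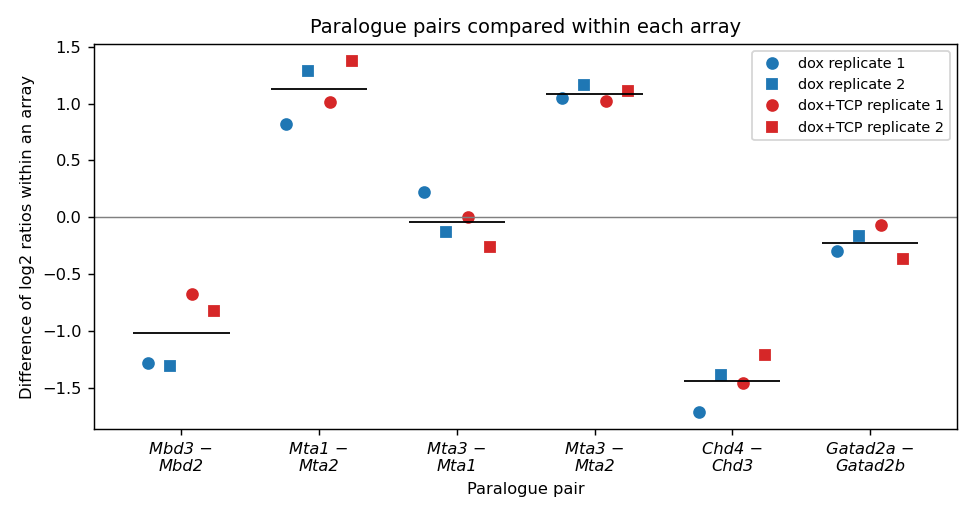
Difference of log2 ratios between paralogues on each array (vertical axis) for 6 pairs (horizontal axis); colour gives the treatment, shape the replicate, and a line the mean of 4 arrays. All pairs except Mta3 and Mta1 lie on 1 side of 0 on all 4 arrays.

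The reference level of each subunit was compared between replicates, with no test. The mean normalized log2 Cy3 level on the replicate 2 arrays minus that on the replicate 1 arrays ran from -0.32 (Gatad2b) to 0.37 (Rbbp7) with a median of -0.096, and 4 of 10 were brighter in replicate 2. For the 8 trophoblast markers the median was 1.46 and 7 were brighter. For Rbbp7 the reference was 14.67 and 14.86 in replicate 1 and 15.02 and 15.23 in replicate 2, while its treated level was 16.52 and 15.89 in replicate 1 and 15.37 and 15.72 in replicate 2. Both channels of Rbbp7 thus moved toward each other in replicate 2. At the brightest Chd4 probe the reference moved by 0.11 and the treated level by 0.77. The other tested Chd4 probes did not share this rise in both groups. Their treated levels on dox replicates 1 and 2 were 9.20 and 9.38 at 1 probe and 10.84 and 10.66 at the other. On dox+TCP replicates 1 and 2 they were 8.89 and 8.28, and 10.44 and 10.87. Replicate 2 with dox+TCP was on a slide and scan day of its own, and the part of slide or day in these values was not tested.

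**Figure D5:**
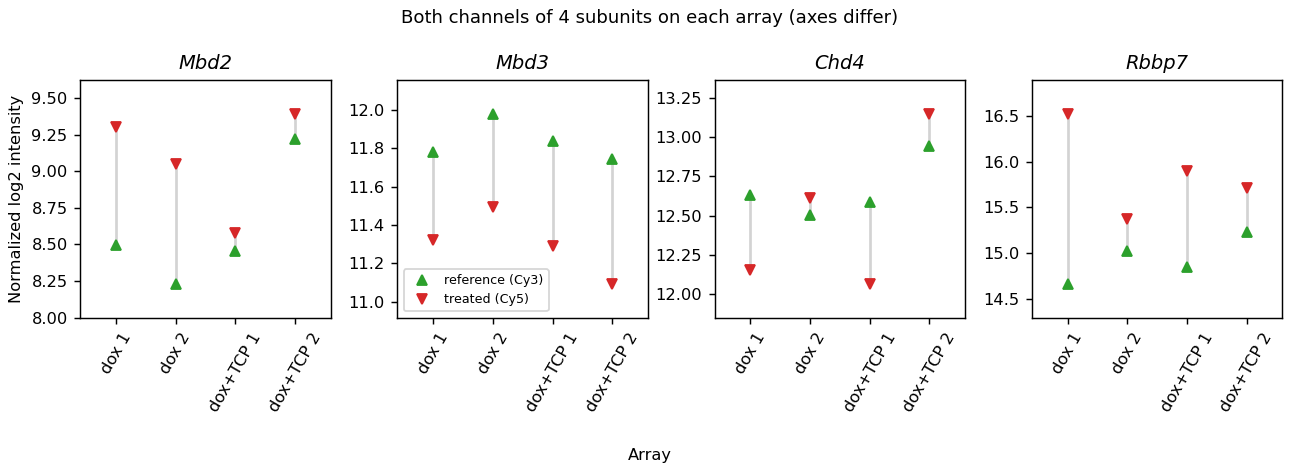
Normalized log2 intensity (vertical axes, which differ) of the reference in Cy3 and the treated cells in Cy5 for 4 subunits on each array (horizontal axes); a grey line joins the channels of an array. For Mbd2 the reference is at 9.22 on dox+TCP replicate 2 and between 8.23 and 8.49 on the others, and for Rbbp7 the treated level is highest, 16.52, on dox replicate 1.

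After loess none of the other genes of the complex passed upward in either comparison. Of Hdac1, Hdac2, Rbbp4, Cdk2ap1 and Chd5, 0 of 5 passed with dox (limma, 2 with an unadjusted p under 0.05) and the median log2 ratio was -0.36. Over all genes 14.6% passed with dox and 15.4% with dox+TCP. Hdac1, a deacetylase of the complex, had -0.32 and -0.39 with dox and -0.70 and -1.08 with dox+TCP. Every array lay below the reference, and it fell with dox+TCP, by 0.89 ± 0.13 (adjusted p = 0.0298), but did not pass with dox (adjusted p = 0.152). Under median centring the call was lost (-0.36, adjusted p = 0.178; from 0.031 to 0.178 over the scalings tried) and the dox value was 0.36. Rbbp4, the paralogue of Rbbp7, had 0.56 and -0.18 with dox and 0.54 and 0.49 with dox+TCP and did not pass after loess (limma adjusted p = 0.605 and 0.187). Under median centring it was called higher in both, at 0.92 and 1.07 (adjusted p = 0.015 and 0.0136; over the scalings tried up to 0.688 and 0.186). Kdm1a, the demethylase named in the title, was at 0.25 ± 0.087 with dox (adjusted p = 0.152) and 0.036 with dox+TCP (adjusted p = 0.812); under median centring it was called with dox, at 0.96 (adjusted p = 0.0154; from 0.0154 to 0.289 over the scalings tried).

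Proteins known to bring NuRD to DNA were called in both directions. Of 14 listed, 12 were tested, and with dox 2 rose (Sall1 and Zfpm1) and 3 fell (Sall4, Zfp219 and Zmynd8), with a median of -0.48. Over all genes 6.32% were called higher with dox and 8.28% lower. Zfpm1, the GATA cofactor FOG1, rose by 1.39 ± 0.15 with dox (limma adjusted p = 0.0211) and by 1.86 ± 0.15 with dox+TCP (adjusted p = 0.017). Sall4, a zinc finger factor of pluripotent cells, fell by 0.61 ± 0.11 (adjusted p = 0.0441) and 1.08 ± 0.11 (adjusted p = 0.0202). Zmynd8, a bromodomain protein, fell by 1.57 with dox and 0.77 with dox+TCP (adjusted p = 0.0169 and 0.0407), and Zfp219, a zinc finger protein, fell by 1.38 and 1.03 (adjusted p = 0.0141 and 0.0175). With dox+TCP, 1 rose and 4 fell, Zbtb7a being the fourth at -0.97 (limma adjusted p = 0.0385), and the median was -0.23. Over all genes 7.31% were called higher with dox+TCP and 8.08% lower. With median centring 3 rose and 2 fell in either comparison, beside 28.1% of all genes called with dox and 23.9% with dox+TCP. Sall4 with dox was then at -0.041 (limma adjusted p = 0.864). The dox+TCP calls of Zmynd8 (-0.37, limma adjusted p = 0.159) and Zbtb7a (-0.67, adjusted p = 0.0562) were also lost then. With the scanner log ratios the dox+TCP call of Zmynd8 (adjusted p = 0.0512) and the dox call of Sall4 (-0.50, adjusted p = 0.118) were lost. Zfpm1 was called higher and Zfp219 lower in both comparisons after loess, without background subtraction, under median centring and with the scanner log ratios. With local backgrounds as read neither was called, as 0 of all genes passed.

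For scale, 20 subunits of BAF, another ATP-driven remodelling complex, were tested. With dox 0 rose and 3 fell (Smarcd1, Smarcd3 and Ss18, median -0.087), beside 6.32% higher and 8.28% lower over all genes. With dox+TCP 0 rose and 5 fell (median -0.36), beside 7.31% higher and 8.08% lower over all genes. With median centring 8 rose and 1 fell with dox, beside 28.1% of all genes called, 81.1% of them higher. The direction for BAF thus depends on the scaling. The difference between the complexes was not tested.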

How the data were processed

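RNA of ZHBTc4 cells was measured on 4 Agilent arrays of design 014868. Per the file headers, Agilent Feature Extraction 10.1.1.1 wrote linear intensities for each spot and its surroundings, with probe positions on mm7 (NCBI35). It also wrote log10 Cy5/Cy3 values after subtracting background and balancing the dyes, per the file headers; the deposited series matrix holds log10 values that match them within 0.005. Further processing by the authors is not given in the sources used here. The members and lists were chosen with earlier results of these data known.

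Of 45018 spots on an array, 1639 were controls. Mean signals were corrected with normexp (offset 50; a local background exceeding 2 times its array median was set to that median) and normalized by loess in limma 3.58.1 (R 4.3.3), with outlier spots, 119 to 176 on an array, set to missing. To be tested, a probe had to exceed background clearly in Cy5 on both dox or both dox+TCP arrays, or in Cy3 on all 4 (31114 probes, 21411 genes), and a gene is its brightest tested probe. Group means were fitted on all 4 arrays (2 residual and 1.79 prior degrees of freedom), with eBayes and Benjamini-Hochberg adjustment over all genes at 0.05. Channel levels are log2 intensities after loess and Aquantile, computed from the deposited intensities. Named genes are all members, Pou5f1, Kdm1a, the called genes of the complex and recruiter lists and at most 3 called BAF genes; the values of Rbbp4 and the fibroblast markers were added after they were seen. The fit was tested on simulated data in which 200 of 21348 genes changed. Between dox+TCP and dox it recovered 0% of log2 changes of 1 or 2 and 76% of changes of 3. For dox against the reference it recovered 0%, 75.5% and 90.5% of changes of 1, 2 and 3. Of the calls for dox, 6.211% were false at a change of 2 and 9.95% at 3. The simulation changed far fewer genes than the 14.6% called with dox, with noise drawn independently for each array. These rates need not hold for the data.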

Additional observations from a re-analysis of the deposited data

How the results depend on the processing

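Each fit was repeated with other background corrections, filters, scalings, probe rules and blocks, and without each array. Counts of subunits called, 4 for dox and 3 for dox+TCP against the reference, moved as follows. With local backgrounds as read, with scan day as a block and, for dox, with its own arrays alone, 0 subunits and 0 of all genes were called. Centring each array on its median gave 7 and 6, with 28.1% and 23.9% of all genes called. For dox+TCP it moved the share of called genes that were higher from 47.5% to 78.3%. The repeats of the complex, recruiter and BAF lists under other scalings were chosen after seeing the data. With the replicate number as a block 7 and 4 were called, with 22.8% and 24% of all genes: Mta1 (adjusted p = 0.0266), Gatad2b (0.0381) and Rbbp7 (0.0428) were added for dox and Mta1 (0.0244) for dox+TCP. Same-numbered arrays deviated together (correlation 0.472 over 21348 genes), but 2 pairs do not settle a pairing. Log2 ratios correlated at 0.662 between the dox arrays and 0.865 between the dox+TCP arrays. Across treatments they correlated at 0.878 between the replicate 1 arrays and 0.815 between the replicate 2 arrays. Without 1 array the counts ran from 0 to 4 for dox and from 0 to 4 for dox+TCP. They were 0 for dox without either dox+TCP array, and 0 for dox+TCP without either of its own. Between dox+TCP and dox the count was 0 under all alternatives, the block included.

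Signs reversed in these cases. Under median centring, dox values were 0.079 (Mbd3), 0.44 (Mta2) and 0.40 (Chd4), and dox+TCP values 0.17 (Mta2) and 0.27 (Chd4). For the difference between the treated groups it gave -0.14 (Mta1) and -0.14 (Chd4). The mean of a gene's probes gave 0.019 (Chd4, dox), -0.049 (Gatad2a, dox+TCP), and differences of -0.22 (Chd4) and 0.077 (Gatad2b). Backgrounds as read gave differences of 0.014 (Mbd3), 0.095 (Mta2) and 0.040 (Mta3). A scan day block gave -0.056 (Mta1) and -0.34 (Chd4). Cy5 levels alone gave -0.15 for Mta1. Leaving out 1 array at a time, values crossed 0 for Chd4 with dox (-0.48 to 0.11) and with dox+TCP (-0.52 to 0.20), and for the differences of Mta1 (-0.28 to 0.36), Mta3 (-0.28 to 0.0069), Chd3 (-0.42 to 0.052), Chd4 (-0.34 to 0.39) and Rbbp7 (-1.09 to 0.41). Mta3 minus Mta1 ran from -0.13 to 0.035 without 1 array and was 0.018 under median centring. The cause was not tested. Slide as a block could not be fitted, as it left no residual degrees of freedom, and was not run.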
